A study of Mus musculus with 4 samples.

Results

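The response of Hmga2 knockout mouse embryonic fibroblasts (MEF) to TGFB1 was read from 1 Ctrl library and 1 TGFB1 library, both from Hmga2-/- cells. Each gene was represented by its transcript with the longest gene body on the gene's own strand, and a gene was kept where that transcript reached 1 RPKM in at least 1 of both libraries. RPKM, as deposited by the authors, is the number of reads on a transcript scaled to its length and to the mapped reads of the library. With this rule 11140 of 25923 named genes were kept. The MEF were of strain C57BL/6, taken at embryonic day 15.5 from embryo bodies without head, limbs, tail and viscera, and were immortalized with SV40, so that every value below is from 1 immortalized line per genotype. Both treatments followed a night of starvation in 1% FCS. The Ctrl cells then received water, and the TGFB1 cells received 10 ng/ml of human recombinant TGFB1 for 24 h. An Hmga2+/+ line treated the same way gave the remaining 2 of the 4 libraries of the series. One of the sample labels writes the knockout genotype as Hmga-/-, while the sample titles write Hmga2-/-.

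TGFB1 is a secreted cytokine that binds the receptor kinases TGFBR2 and TGFBR1, which phosphorylate SMAD2 and SMAD3. These enter the nucleus with SMAD4 and bind short DNA motifs near their target genes, where they act together with AP-1 and other factors. In fibroblasts the pathway is best known for turning resting cells into contractile, matrix-secreting myofibroblasts, the cells of scars and fibrosis. HMGA2 is a small chromatin protein of the minor groove that the study places in transcription induced by TGFB1, and the pair of libraries shows which RNAs changed with TGFB1 in cells that lack it.

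With 1 library a side no difference has a replicate check and no test was made. Reads behind each RPKM could be derived, since low RPKM values were whole multiples of the worth of 1 read. They gave 56610000 mapped reads for the Ctrl library and 56950000 for the TGFB1 library, and a floor of 3 reads for a transcript of 1000 bases at 0.0530 and 0.0527 RPKM. The exact 95% (Clopper-Pearson) interval that these reads give for a ratio stands in parentheses after its log2 change. It covers counting error only and compares the libraries, not the treatments. Hmga2 itself, on chromosome 10 from 120361275 to 120476935 of mm10, had 0 reads in both Hmga2-/- libraries. In Hmga2+/+ MEF it stood at 14.8 RPKM (Ctrl) and 40.7 RPKM (TGFB1). Of 13 fibroblast markers, 12 were at 1 RPKM or more in the Hmga2-/- Ctrl library and 11 in the TGFB1 library, with a summed level of 2491 and 2283 RPKM. Vim alone made up 1497 and 1390 RPKM of these sums. With TGFB1, Col3a1, Col6a1, Pdgfra, Fap, Dcn, Twist1 and Prrx1 were at least 1.5-fold lower, and Pdgfrb and Thy1 at least 1.5-fold higher. None of the 8 epithelial markers and none of the 8 skeletal muscle markers reached 1 RPKM in either library, and the summed levels of these lists were 0.467 and 1.09 RPKM for epithelium and 0.287 and 0.246 RPKM for muscle. Of 8 blood markers 1 reached 1 RPKM, and their sum was 1.66 and 1.40 RPKM. Of 7 endothelial markers 2 reached 1 RPKM in the Ctrl library (Kdr and Tek) and 1 in the TGFB1 library (Kdr). Their sum was 7.12 and 8.16 RPKM, and Cdh5, Tie1, Cldn5 and Emcn were at 0 in the Ctrl library. Of 7 neural markers 2 and then 3 reached 1 RPKM (sum 31.8 and 48.6 RPKM), of 7 cartilage markers 1 and then 2 (sum 3.06 and 8.83 RPKM) and of 6 smooth muscle markers 2 in each library (sum 14.6 and 21.0 RPKM). The part of such cells in any change was not tested. In bulk RNA, fewer cells of a type and less RNA per cell cannot be told apart.

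After TGFB1, 1536 of the 11140 genes (13.8%) were at least 1.5-fold higher and 1719 (15.4%) at least 1.5-fold lower, the threshold the study's methods use. These genes are said below to have risen or fallen, and 7885 genes did neither. The log2 change of the median gene was 0.01. At 2-fold or more, 666 genes were higher and 780 lower. A gene that passed the filter through 1 library only had a built-in lean towards a difference. There were 881 such genes, of which 225 rose, 487 fell and 169 did neither, and among the 10259 genes at 1 RPKM or more in both libraries 1311 rose (12.8%) and 1232 fell (12.0%). The balance of rises and falls moved with the level. In genes whose higher library was between 1 and 5 RPKM, 467 rose and 954 fell. From 5 to 20 RPKM the counts were 617 and 556, from 20 to 100 RPKM 373 and 189, and at 100 RPKM or more 79 and 20. Genes with bodies over 100000 bases made up 17.3% of the fallen genes, 11.0% of the risen genes and 11.0% of the others. At the edge of the filter, Zfp950 was kept with 1.00 and 0.597 RPKM and Exosc5 was left out with 0.786 and 0.997 RPKM.

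**Figure D1:**
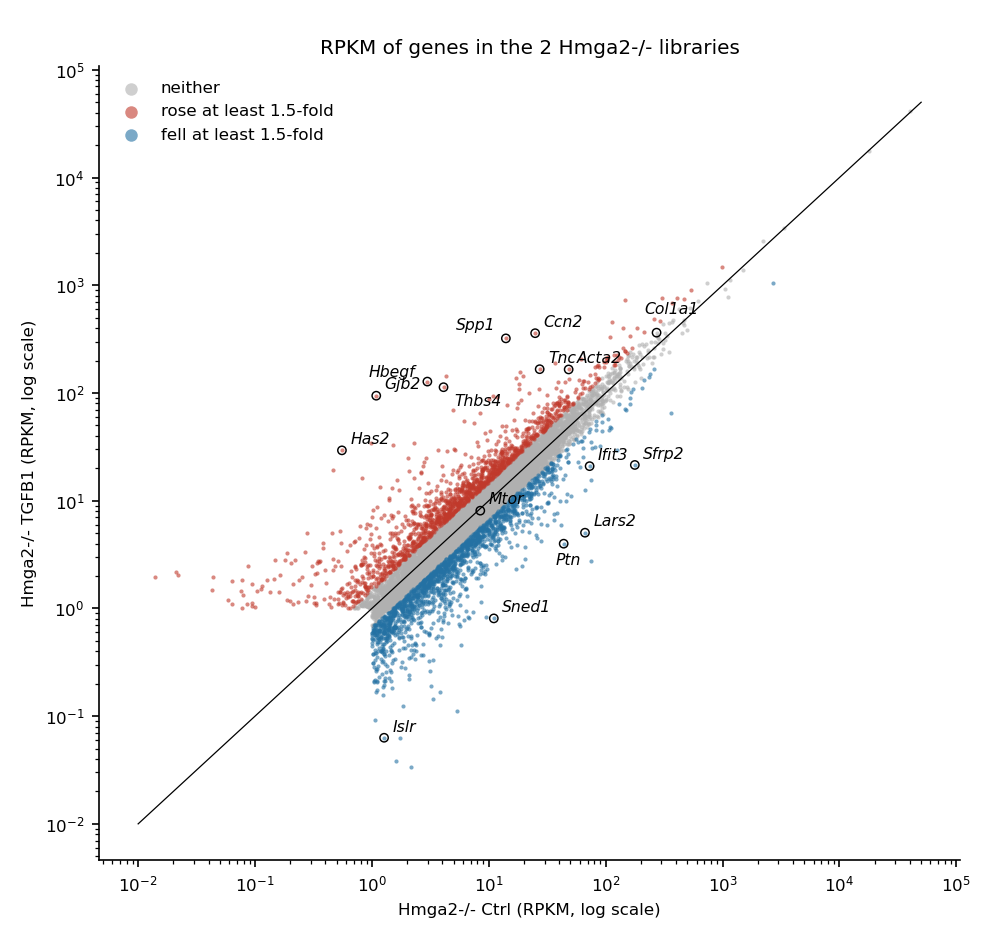
RPKM of each gene in the Hmga2-/- Ctrl library (horizontal, log scale) and in the Hmga2-/- TGFB1 library (vertical, log scale), for kept genes on transcripts of 200 bases or more and above 0 in both libraries, 1 dot per gene. Red dots rose at least 1.5-fold, blue dots fell at least 1.5-fold and grey dots did neither. The line marks equal levels, and Gjb2, Hbegf and Has2 lie farthest above it among the circled genes.

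The 20 largest rises and 20 largest falls of protein-coding genes were ranked by the interval bound nearest to no change. Gjb2, which codes for the gap junction protein connexin 26 and lies on chromosome 14 from 57098602 to 57104702 of mm10, had 1.09 RPKM in the Ctrl library and 94.3 RPKM in the TGFB1 library, a log2 change of 6.44 (6.20 to 6.68) and an 86.6-fold rise. Hbegf, the heparin-binding ligand of the EGF receptor, on chromosome 18 from 36504927 to 36515805, had 2.98 RPKM in the Ctrl library and 128 RPKM in the TGFB1 library, a log2 change of 5.42 (5.28 to 5.57) and a 42.8-fold rise. Has2, which makes hyaluronan, rose from 0.554 to 29.3 RPKM, by 5.73 (5.48 to 5.98) on the log2 scale. Gjb2 and Hbegf had been given as markers of this treatment, so their place among the first 3 in this order is no independent support. Further genes of this order were the metalloprotease Adam12 (from 0.986 to 34.7 RPKM) and the matrix protein Thbs4 (from 4.10 to 113 RPKM). Their log2 changes were 5.14 and 4.79. The abundant secreted proteins Spp1, or osteopontin (from 14.0 to 321 RPKM), and Ccn2, also called CTGF (from 24.9 to 359 RPKM), rose 23.0-fold and 14.4-fold. Prss46, Prdm1 and Ccl20 rest on 1 read each in the Ctrl library, and their intervals run from 4.61 to 12.4, from 4.15 to 12.0 and from 4.00 to 11.8 on the log2 scale. For Prdm1, a repressor of transcription, a longer transcript of the same gene had 13 reads in the Ctrl library and 606 in the TGFB1 library. Others of the 20 were the semaphorin Sema7a, the protease-activated receptor F2rl1, the integrin Itga11, the Wnt effector Lef1, the serotonin receptor Htr2b, the anchoring fibril collagen Col7a1, the lubricant proteoglycan Prg4 and the cathepsin Ctsw, with log2 changes from 4.13 for Col7a1 to 5.49 for Sema7a.

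**Figure D2:**
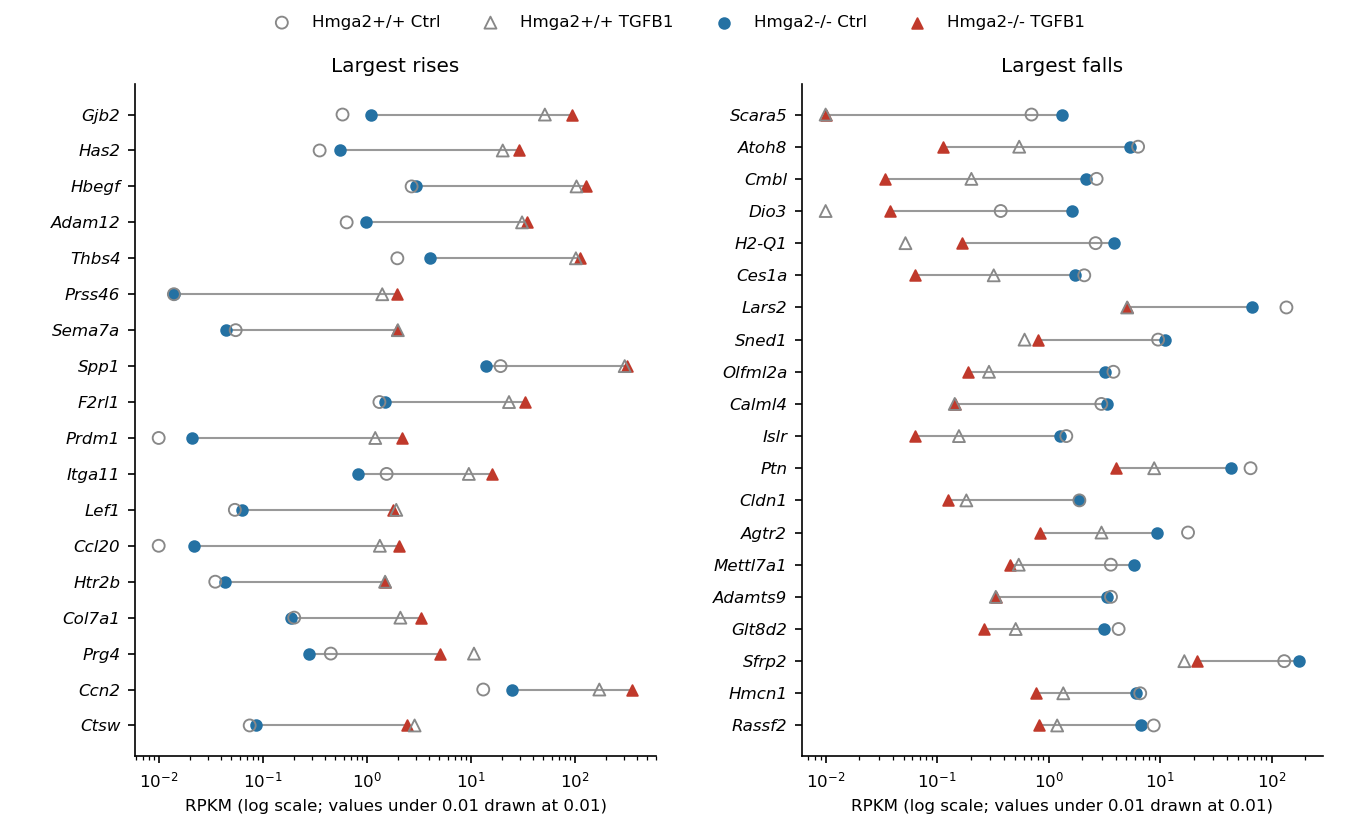
RPKM (horizontal, log scale, values under 0.01 drawn at 0.01) of 18 of the 20 protein-coding genes with the largest rise (left) and the 20 with the largest fall (right), ranked by the bound of the counting interval nearest to no change. Filled symbols are the Hmga2-/- libraries (circle Ctrl, triangle TGFB1) joined by a line, and open grey symbols are the Hmga2+/+ libraries. Each of the 38 genes drawn moved the same way in the Hmga2+/+ pair.

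Among the largest falls, the scavenger receptor gene Scara5 went from 281 reads (1.31 RPKM) to 0 reads. Against a floor of 3 reads in the TGFB1 library it was at least 94.2-fold lower. The transcription factor Atoh8 fell from 5.34 to 0.112 RPKM, a log2 change of -5.58 (-6.39 to -4.86) on the log2 scale. Dio3, which inactivates thyroid hormone, fell from 1.62 to 0.0380 RPKM, with 171 and 4 reads. Falls of abundant RNAs were those of Sfrp2, a secreted Wnt antagonist (from 178 to 21.5 RPKM, log2 change -3.05, -3.11 to -2.99), Ptn, the growth factor pleiotrophin (from 43.7 to 3.99 RPKM, log2 change -3.45, -3.60 to -3.32), and Agtr2, a receptor of angiotensin (from 9.39 to 0.839 RPKM, log2 change -3.48, -3.75 to -3.23). Lars2 was listed from 66.5 to 5.04 RPKM, a log2 change of -3.72 (-3.81 to -3.63), on its transcript of 3840 bases. Its other transcript of 3419 bases had only 88 and 62 reads, so the fall lies in sequence that this shorter transcript does not hold. The other 13 of the 20 were Cmbl, H2-Q1, Ces1a, Sned1, Olfml2a, Calml4, Islr, Cldn1, Mettl7a1, Adamts9, Glt8d2, Hmcn1 and Rassf2, and their log2 changes ran from -5.98 for Cmbl, with 2 reads left in the TGFB1 library, to -2.97 for Hmcn1. Reads of H2-Q1, a member of the class I antigen family, and of Ces1a can be split with near-identical copies, so these values are uncertain. Among genes that code for no protein, the largest falls included Gm15564 (from 75.2 to 2.76 RPKM) and the microRNA host Mir99ahg (from 6.38 to 1.52 RPKM). The largest rises included Gm15832 (from 2.15 to 10.3 RPKM) and Mir17hg, the host of a microRNA cluster that acts in growth (from 1.41 to 5.02 RPKM). Lars2 and Gm15564 stood higher in the Hmga2+/+ Ctrl library, at 136 and 185 RPKM. Whether the reads on these transcripts come from the named genes was not tested.

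In 46 gene lists, sorted by what their members do, the direction of change differed widely from list to list. The count of kept members that rose and fell is given for each list, to be read beside the 13.8% and 15.4% of all kept genes, and some genes stand in several lists. The lists of TGF-beta target, contractile and matrix genes were built from what is known of this treatment.

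**Figure D3:**
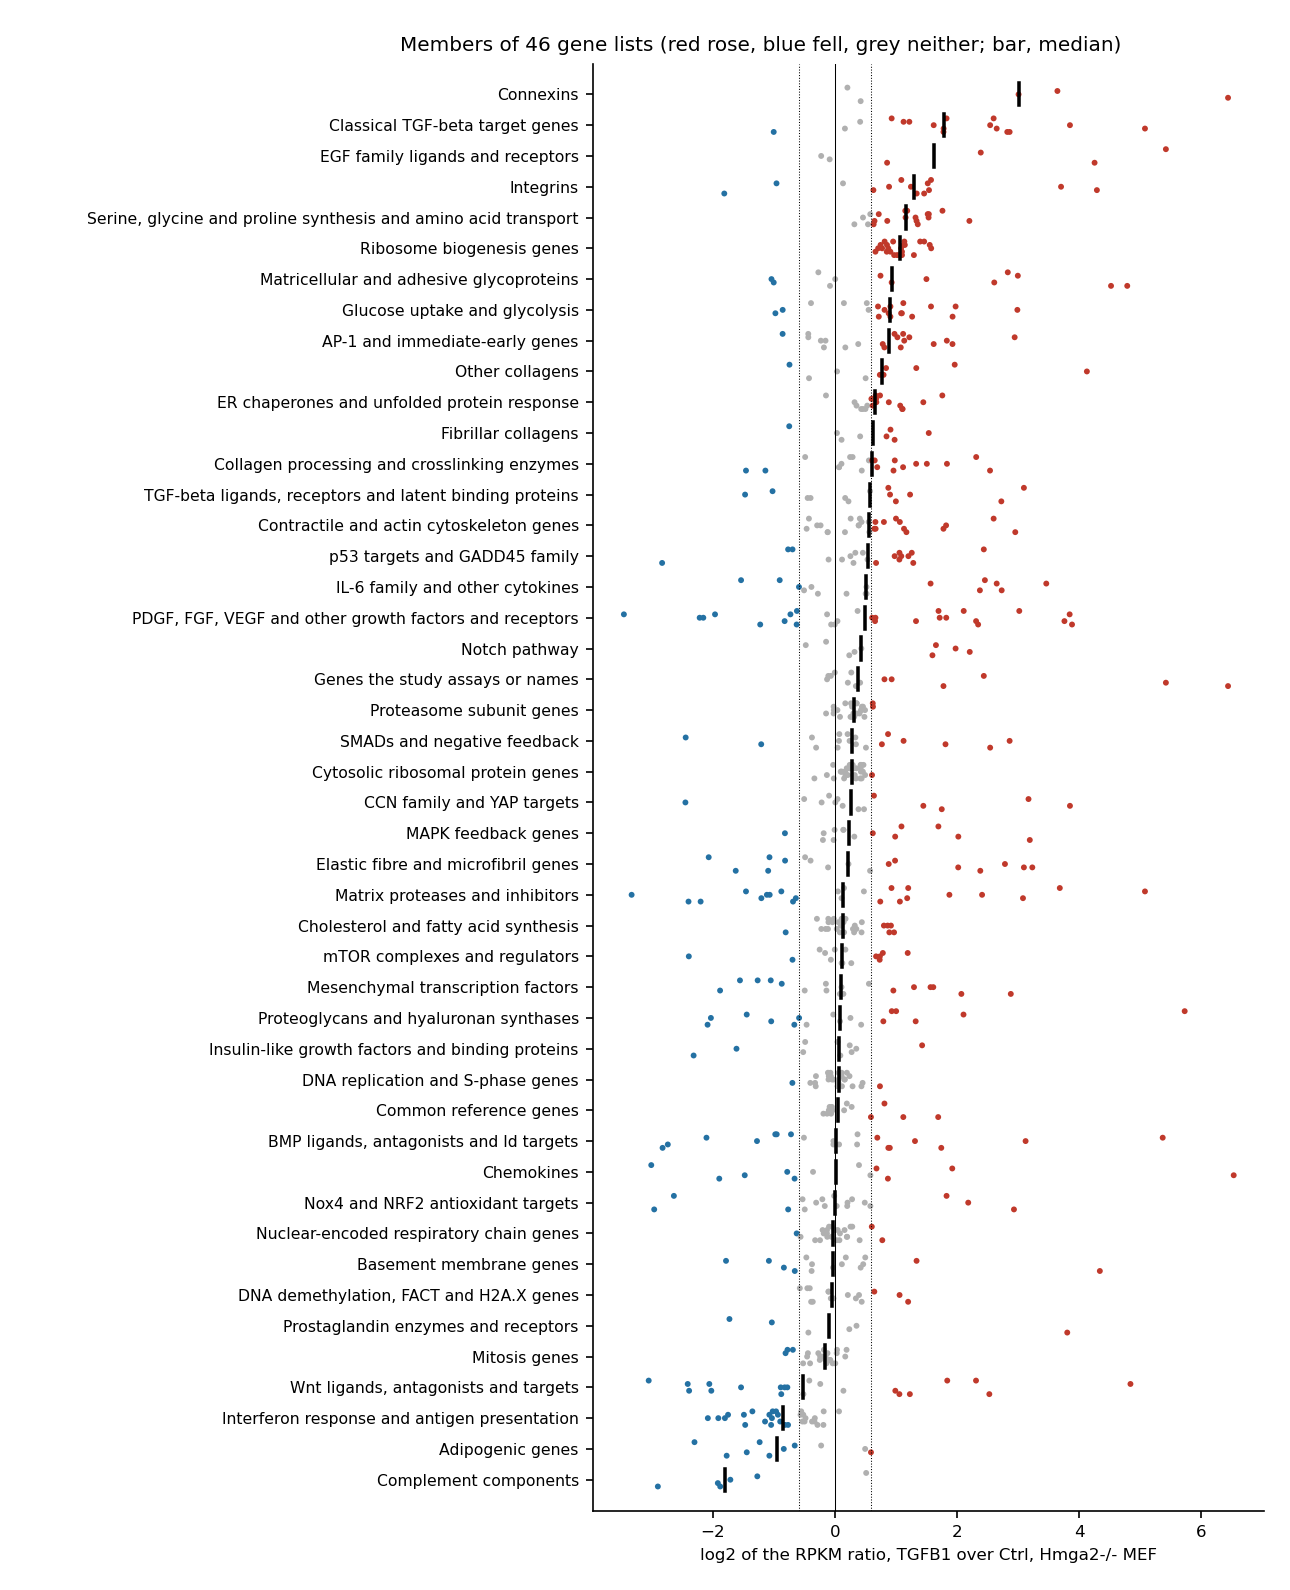
log2 of the RPKM ratio of the TGFB1 library over the Ctrl library of Hmga2-/- MEF (horizontal) for the kept members of 46 gene lists (1 row each, sorted by median), 1 dot per gene. Red dots rose at least 1.5-fold, blue dots fell and grey dots did neither, the black bars are medians, and dotted lines mark 1.5-fold. Connexins and TGF-beta target genes stand at the top, complement and adipogenic genes at the bottom.

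Of the ligands, receptors and latent binding proteins of the TGF-beta pathway, 13 of 15 were kept, and 6 rose, 2 fell and 5 did neither (median log2 change 0.58). Tgfb1 rose from 5.97 to 14.0 RPKM and Tgfb3 from 24.5 to 45.0 RPKM, while Tgfb2 fell from 12.4 to 6.14 RPKM. Inhba, the subunit of activin A, rose from 18.2 to 120.5 RPKM, a log2 change of 2.73 (2.65 to 2.80). Ltbp2, a matrix protein of the latent binding family, rose from 10.9 to 93.5 RPKM, by 3.09 (3.05 to 3.14). The receptors moved apart. Tgfbr1 rose from 4.29 to 8.57 RPKM, the coreceptor Tgfbr3 fell from 38.1 to 13.7 RPKM, and Tgfbr2 had 41.1 and 30.1 RPKM, a log2 change of -0.45 that did not pass 1.5-fold. Among SMADs and inhibitors of the pathway, 6 rose, 2 fell and 10 did neither of 18 kept (median 0.29). Over the 17 at 1 RPKM or more in both libraries, 6 rose and 1 fell, with a median of 0.34. The signal-carrying SMADs stayed within 1.5-fold, with Smad2 at 6.57 and 7.76 RPKM, Smad3 at 12.2 and 9.40 RPKM and Smad4 at 13.0 and 15.1 RPKM. Inhibitors that TGFB1 is known to induce rose, namely Pmepa1 (from 19.7 to 143 RPKM, log2 change 2.86, 2.82 to 2.90), Skil (from 5.10 to 29.7 RPKM), Tgif1 (from 5.46 to 19.2 RPKM) and Smad7 (from 6.67 to 14.6 RPKM). Smad6 and Smad9, which belong to the BMP branch, fell from 7.23 to 3.13 RPKM and from 3.06 to 0.563 RPKM.

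Classical TGF-beta target genes were the list with the second highest median, 1.78 on the log2 scale. Of 17 kept, 14 rose, 1 fell and 2 did neither, and 16 of the 17 were at 1 RPKM or more in both libraries. Among the risen targets were Ccn2, Pmepa1, Fstl3, an activin antagonist (from 2.63 to 18.6 RPKM), and the cytokine Il11 (from 0.337 to 2.11 RPKM). Nox4, an oxidase that makes hydrogen peroxide, rose from 1.60 to 5.67 RPKM. Fibronectin, Fn1, was the most abundant target and rose from 404 to 769 RPKM, a log2 change of 0.93 (0.92 to 0.94). Tgfbi, named for its induction by this cytokine, fell from 29.2 to 14.6 RPKM. The promoters of Gjb2 and Fstl3 are shown from 250 bases before to 50 after the RefSeq start on GRCm38.p6, at chr14:57104653-57104952 on the minus strand and chr10:79777024-79777323 on the plus strand, with capitals for each CAGAC on either strand, the motif bound by SMAD3 and SMAD4.
Gjb2: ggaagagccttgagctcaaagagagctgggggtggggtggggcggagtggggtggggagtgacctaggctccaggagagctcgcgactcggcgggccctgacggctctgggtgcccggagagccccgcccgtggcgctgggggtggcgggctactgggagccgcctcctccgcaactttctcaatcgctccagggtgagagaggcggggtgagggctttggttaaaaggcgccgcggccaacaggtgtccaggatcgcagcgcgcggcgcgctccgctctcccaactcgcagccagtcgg
Fstl3: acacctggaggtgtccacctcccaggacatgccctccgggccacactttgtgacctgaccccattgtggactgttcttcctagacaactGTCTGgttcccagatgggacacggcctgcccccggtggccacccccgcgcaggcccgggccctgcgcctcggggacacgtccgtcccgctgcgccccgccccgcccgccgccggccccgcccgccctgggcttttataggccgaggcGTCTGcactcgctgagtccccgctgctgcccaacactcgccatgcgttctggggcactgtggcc
The window of Gjb2 held no match and that of Fstl3 held 2. Fstl3 is the classical target with the largest change among those with a match, so its matches are no test of the motif. Of the classical targets, 6 of 7 with a promoter held a match (85.7%). Tgfbi, which fell, and Tsc22d1, which did neither, were among these 6. CAGAC was found in 49.2% of the 1089 risen genes with a promoter in the RefSeq table, in 47.2% of the 1219 fallen genes, in 46.2% of the 6221 genes that did neither and in 48.6% of all 18278 promoters, 1 per gene.

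Genes of the BMP branch moved in both directions, and of 20 kept 7 rose, 7 fell and 6 did neither (median 0.02). Of the 16 at 1 RPKM or more in both libraries, 6 rose and 4 fell, with a median of 0.22. Secreted antagonists were among the risen members, with Grem1 from 3.48 to 8.63 RPKM, Bmper from 1.81 to 6.05 RPKM and Fst, or follistatin, from 8.28 to 15.2 RPKM. The ligand Bmp2 rose from 1.49 to 13.0 RPKM, a log2 change of 3.12 (2.95 to 3.30). Id genes, which code for inhibitors of helix-loop-helix factors and are the best-known BMP targets, all fell. Id2 went from 41.7 to 5.91 RPKM (log2 change -2.82, -2.97 to -2.67), Id3 from 27.9 to 4.19 RPKM (log2 change -2.73, -2.94 to -2.53), Id1 from 13.2 to 6.73 RPKM and Id4 from 2.16 to 0.891 RPKM. Msx1, another BMP target, fell from 22.0 to 5.13 RPKM.

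Contractile genes rose in part. Of 26 kept, 12 rose, 0 fell and 14 did neither (median 0.56). Acta2, smooth muscle actin and the standard mark of myofibroblasts, rose from 48.2 to 165 RPKM, by 1.78 (1.74 to 1.82) on the log2 scale, and Tagln, or SM22, rose from 18.1 to 109 RPKM, by 2.60 (2.52 to 2.68). Acta1, skeletal actin, rose from a low level, from 0.341 to 2.64 RPKM. Among abundant members Tpm1 rose from 472 to 749 RPKM, Flna from 87.2 to 175 RPKM and Actn1 from 86.3 to 180.4 RPKM. Myl9, Cald1 and Myh10 were within 1.5-fold, at 19.6 and 18.0 RPKM, 469 and 432 RPKM and 56.2 and 45.9 RPKM. Genes of mature smooth muscle differed. Actg2 rose from 1.03 to 3.65 RPKM and Cnn1 from 2.23 to 3.49 RPKM. Smtn was within 1.5-fold, at 12.9 and 16.9 RPKM, and Myh11, Lmod1, Synpo2, Des and Myocd did not pass the filter. The factor SRF binds the CArG box, searched on both strands as CC and GG around 6 bases that are A or T. It was found in 5 of 24 promoters of the list (20.8%), against 1.28% of the promoters of 8529 kept genes. Of the 5, in Acta1, Cnn2, Myl9, Vcl and Srf, Acta1 alone belongs to a risen gene. Its promoter, at chr8:123894726-123895025 on the minus strand, is shown with the box in capitals.
Acta1: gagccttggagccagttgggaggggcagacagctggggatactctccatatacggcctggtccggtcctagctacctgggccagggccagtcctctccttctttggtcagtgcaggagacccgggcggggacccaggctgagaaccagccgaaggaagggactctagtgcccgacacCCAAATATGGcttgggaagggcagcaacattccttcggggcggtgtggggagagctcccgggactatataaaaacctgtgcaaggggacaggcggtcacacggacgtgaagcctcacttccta

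Matrix genes moved both ways, also within a class. Of 8 fibrillar collagens kept, 4 rose, 1 fell and 3 did neither. The type V chains rose, with Col5a1 from 41.2 to 81.1 RPKM, Col5a2 from 126 to 226 RPKM and Col5a3 from 6.18 to 17.9 RPKM. The type I chains, the bulk of scar collagen, were within 1.5-fold, Col1a1 at 272 and 363 RPKM (log2 change 0.41, 0.40 to 0.43) and Col1a2 at 185 and 189.9 RPKM, and Col3a1 fell from 237 to 141 RPKM. Other collagens counted 6 risen, 1 fallen and 3 other members, with rises of Col7a1, Col8a1 (from 41.4 to 104 RPKM) and Col12a1 (from 63.8 to 111 RPKM) and, within type VI, a rise of Col6a3 (from 31.4 to 52.3 RPKM) and a fall of Col6a1 (from 58.3 to 34.8 RPKM). Enzymes that hydroxylate and crosslink collagen had 11 risen, 2 fallen and 8 other members (median 0.61). Lox, the lysyl oxidase, rose from 146 to 726 RPKM, by 2.31 (2.30 to 2.33), the lysyl hydroxylase Plod2 from 10.4 to 29.5 RPKM, and the prolyl hydroxylases P4ha1 from 32.8 to 63.8 RPKM and P4ha3 from 2.24 to 7.98 RPKM. Loxl2 and Loxl3 rose too, whereas Adamts2, which trims procollagen, fell from 4.85 to 1.77 RPKM and the transglutaminase Tgm2 from 2.58 to 1.17 RPKM.

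Matricellular and adhesive glycoproteins of the matrix had 8 risen, 2 fallen and 3 other members (median 0.93). Tnc, or tenascin C, rose from 27.2 to 166 RPKM, Thbs2 from 17.2 to 137 RPKM, Thbs1 from 141 to 398 RPKM and Postn from 148 to 248 RPKM. In the elastic fibre list 7 rose, 5 fell and 5 did neither. Eln, elastin itself, rose from 2.63 to 18.1 RPKM and Mfap5 from 1.65 to 15.5 RPKM, and the abundant Fbln2 rose from 114 to 461 RPKM, while Mfap2 fell from 5.67 to 1.35 RPKM, Efemp1 from 12.0 to 3.90 RPKM and Fbln1 from 22.7 to 10.7 RPKM. Basement membrane genes had 2 risen, 4 fallen and 9 other members, with Lamb1 up from 17.6 to 44.5 RPKM, Nid2 down from 33.5 to 15.8 RPKM and Col4a5 down from 8.53 to 2.48 RPKM. Proteoglycans and hyaluronan synthases had 6 risen, 6 fallen and 5 other members. Bgn, or biglycan, rose from 304 to 760.5 RPKM and Fmod from 4.04 to 17.4 RPKM, and Dcn, or decorin, and Ogn, of the same leucine-rich family, fell from 8.46 to 2.07 RPKM and from 126 to 29.8 RPKM.

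Matrix proteases and their inhibitors were split evenly, with 10 risen, 10 fallen and 4 other members. Over the 21 at 1 RPKM or more in both libraries, 9 rose and 8 fell, with a median of 0.15. Timp1 rose from 18.4 to 155 RPKM, a log2 change of 3.08 (2.98 to 3.18), while Timp2 fell from 149.7 to 69.2 RPKM, a log2 change of -1.11 (-1.14 to -1.08). The aggrecanase-type proteases Adamts1, Adamts5 and Adamts9 fell from 66.5 to 12.6 RPKM, from 27.8 to 6.06 RPKM and from 3.36 to 0.335 RPKM. Adamts4, of the same type, rose from 2.03 to 3.87 RPKM. The urokinase receptor Plaur rose from 3.95 to 21.0 RPKM, and Mmp14, the membrane collagenase, fell from 211 to 131 RPKM. Integrins, the receptors for matrix, had 11 risen, 2 fallen and 1 other members (median 1.29). Itga11, a collagen receptor of fibroblasts, rose from 0.822 to 16.1 RPKM (log2 change 4.29, 4.10 to 4.49), Itga5 and Itgav, receptors for fibronectin and vitronectin, rose from 11.9 to 35.6 RPKM and from 26.2 to 75.1 RPKM, and the shared chain Itgb1 from 160.1 to 340.2 RPKM. Itga1 fell from 3.84 to 1.09 RPKM. In 4 of the 14 kept integrins 1 library was under 1 RPKM, and without these the median was 0.99.

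Secreted growth signals moved in both directions. Of 6 EGF family genes kept, 4 rose, 0 fell and 2 did neither. Of the 5 at 1 RPKM or more in both libraries 3 rose, with a median of 0.86 against 1.62 over the 6. All 4 were ligands, Hbegf, Areg (from 0.147 to 2.80 RPKM), Ereg (from 2.52 to 13.2 RPKM) and Nrg1 (from 7.42 to 13.4 RPKM), while the receptor genes Egfr and Erbb2 stood at 14.7 and 13.9 RPKM and 6.55 and 5.61 RPKM. Connexins had 3 risen, 0 fallen and 2 other members of 5 kept, with Gjb2 among the risen ones. Over the 4 connexins at 1 RPKM or more in both libraries the median was 1.71. Gja1, connexin 43 and the most abundant member, was at 173 and 231 RPKM, a log2 change of 0.42. Among PDGF, FGF, VEGF and other growth factors and their receptors 14 rose, 9 fell and 5 did neither. Fgf2 rose from 2.30 to 34.0 RPKM, by 3.88 (3.57 to 4.21), Pdgfc from 3.64 to 29.5 RPKM and Vegfa from 10.3 to 44.5 RPKM, and Pdgfb and Pdgfa rose from 0.127 to 1.82 RPKM and from 2.33 to 7.67 RPKM. In 7 of the 28 kept members 1 library was under 1 RPKM, and over the other 21 the counts were 9 risen and 7 fallen and the median 0.04. Fgf7 and Fgf10, growth factors that fibroblasts send to epithelium, fell from 13.1 to 2.81 RPKM and from 2.62 to 0.673 RPKM, Vegfd from 11.6 to 2.61 RPKM and Vegfb from 110.5 to 47.3 RPKM. Of the PDGF receptors Pdgfrb rose from 31.5 to 49.9 RPKM and Pdgfra fell from 27.1 to 15.3 RPKM. Insulin-like growth factors and binding proteins had 1 risen, 2 fallen and 7 other members, with Igfbp4 down from 38.0 to 7.64 RPKM and Igfbp7 up from 3.87 to 10.4 RPKM. CCN and YAP target genes had 5 risen, 1 fallen and 8 other members, the risen ones led by Ccn2, Ccn4 (from 6.08 to 54.7 RPKM) and Ccn1 (from 61.5 to 207 RPKM), the fallen one being Ccn3 (from 36.3 to 6.66 RPKM).

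In the Wnt list 7 rose, 10 fell and 4 did neither of 21 kept (median -0.51). Of the 16 at 1 RPKM or more in both libraries, 3 rose and 9 fell. The 4 antagonists kept fell, with Sfrp2 above, Sfrp1 from 3.05 to 0.575 RPKM, Dkk2 from 25.2 to 4.83 RPKM and Dkk3 from 13.6 to 7.34 RPKM. The R-spondins Rspo2 and Rspo3, which strengthen Wnt signals, fell from 40.3 to 9.92 RPKM and from 32.4 to 11.2 RPKM. Of the ligands Wnt5a rose from 5.71 to 20.4 RPKM, Wnt9a from 0.774 to 4.47 RPKM and Wnt10a from 0.570 to 1.13 RPKM, while Wnt16 fell from 9.33 to 2.24 RPKM and Wnt10b from 2.29 to 1.34 RPKM. Of the targets and feedback genes of the pathway, the kept Lef1, Tcf7 (from 1.08 to 2.52 RPKM), Axin2 (from 1.23 to 2.57 RPKM) and Nkd2 (from 0.232 to 1.15 RPKM) rose. Lef1 and Nkd2 passed the filter through the TGFB1 library only. Nkd1 and Notum, under 1 RPKM in both libraries and so not kept, went from 0.313 to 0.070 RPKM and from 0.265 to 0.079 RPKM. Notch genes had 4 risen, 0 fallen and 5 other members, the risen ones being the ligand Jag1 (from 4.62 to 14.5 RPKM) and the targets Hes1 (from 7.30 to 22.1 RPKM), Hey1 (from 0.282 to 1.30 RPKM) and Hey2 (from 0.322 to 1.27 RPKM), while Notch1, Notch2 and Notch3 stayed within 1.5-fold. Hey1 and Hey2 were under 1 RPKM in the Ctrl library, and of the 6 members at 1 RPKM or more in both libraries 2 rose and 0 fell.

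Among early response factors 12 rose, 1 fell and 7 did neither of 20 kept (median 0.89), all 20 of them at 1 RPKM or more in both libraries. The AP-1 genes Junb, Fosl1 and Jun rose from 8.04 to 24.7 RPKM, from 3.09 to 11.7 RPKM and from 36.2 to 76.4 RPKM, Fos and Jund were at 5.15 and 4.55 RPKM and 13.5 and 11.5 RPKM, and Myc rose from 7.08 to 25.2 RPKM, a log2 change of 1.83 (1.73 to 1.94). Egr2 rose from 1.39 to 10.7 RPKM. Feedback genes of the MAPK pathway had 6 risen, 1 fallen and 7 other members. The phosphatases Dusp5, Dusp6 and Dusp4 rose from 2.08 to 19.0 RPKM, from 2.90 to 11.8 RPKM and from 1.20 to 3.88 RPKM, and Dusp1 was at 5.55 and 4.85 RPKM. Of the mesenchymal transcription factors 6 rose, 5 fell and 7 did neither. Runx1 rose from 1.71 to 12.6 RPKM (log2 change 2.88, 2.75 to 3.01), and the tendon factors Scx and Mkx rose from 5.54 to 16.9 RPKM and from 1.51 to 3.71 RPKM. Snai2, Twist1 and Prrx1, factors of mesenchymal identity, fell from 34.6 to 14.4 RPKM, from 63.4 to 30.6 RPKM and from 104 to 57.2 RPKM, and Snai1 was at 1.89 and 2.79 RPKM, a log2 change of 0.56. Targets of p53 and GADD45 genes had 9 risen, 3 fallen and 7 other members. Gadd45a, a stress gene with a part in DNA demethylation that the study knocks down, rose from 14.2 to 76.9 RPKM, by 2.44 (2.34 to 2.54). The cell cycle inhibitors moved apart, Cdkn1a, or p21, rising from 8.63 to 20.7 RPKM and Cdkn2b from 13.6 to 29.0 RPKM, and Cdkn1c, or p57, falling from 20.4 to 2.88 RPKM.

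Cytokine genes also moved both ways. Of 16 cytokine and receptor genes kept, 6 rose, 3 fell and 7 did neither. Of the 12 at 1 RPKM or more in both libraries, 3 rose and 3 fell. Lif rose from 0.458 to 5.04 RPKM and the IL-33 receptor Il1rl1 from 36.5 to 189 RPKM, a log2 change of 2.37 (2.34 to 2.40). Tnfsf11, or RANKL, rose from 0.302 to 1.66 RPKM, and its decoy Tnfrsf11b from 5.96 to 17.6 RPKM. Il11ra1, which binds IL-11, fell from 25.3 to 8.71 RPKM. In the chemokine list 4 rose, 5 fell and 3 did neither. Without the 2 members that passed through 1 library only, 3 rose and 4 fell. Ccl2 rose from 11.7 to 21.4 RPKM and Cxcl14 from 3.59 to 13.6 RPKM, while Cxcl12, Cxcl5 and Cxcl1 fell from 31.9 to 18.6 RPKM, from 23.4 to 8.41 RPKM and from 8.51 to 2.29 RPKM. Ptgs2, the inducible cyclooxygenase, rose from 4.98 to 69.5 RPKM, by 3.80 (3.72 to 3.89), in a prostaglandin list with 1 risen, 2 fallen and 3 other members. Over the 4 members of that list at 1 RPKM or more in both libraries, 1 rose and 1 fell.

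None of the 30 interferon response and antigen presentation genes rose. All 30 were at 1 RPKM or more in both libraries, 17 fell, and the list's median log2 change was -0.86. Ifit3, an interferon-induced protein of the antiviral defence, fell from 72.9 to 20.9 RPKM, a log2 change of -1.80 (-1.87 to -1.73), Ifit1 from 162 to 78.7 RPKM, and Rsad2, or viperin, from 11.9 to 4.25 RPKM. The antiviral GTPase Mx1 fell from 12.1 to 3.24 RPKM, a log2 change of -1.91 (-2.05 to -1.76), and the guanylate-binding proteins Gbp2, Gbp3 and Gbp7 fell from 16.9 to 5.03 RPKM, from 58.2 to 22.8 RPKM and from 17.0 to 6.14 RPKM. The immunoproteasome subunits Psmb8 and Psmb9 fell from 15.5 to 7.03 RPKM and from 4.67 to 1.10 RPKM. The class I antigen genes H2-K1 and H2-D1 were within 1.5-fold, at 66.7 and 53.1 RPKM and 109 and 86.4 RPKM, unlike H2-Q1 above, though reads of this family can be split between near-identical genes. The signal carrier Stat2 fell from 34.5 to 20.3 RPKM. The core of the interferon-stimulated response element (ISRE), searched on both strands as GAAA, any pair of bases and GAAA, was found in 12 of 24 promoters of the list with a RefSeq entry, against 3.10% of the promoters of 8529 kept genes. Among all fallen genes the share was 5.25%, among risen genes 2.66%. Ifit3 and Gbp2 are the fallen genes with the largest change among those with the motif and a RefSeq start close to the transcript's start. Their promoters lie at chr19:34583279-34583578 on the plus strand and chr3:142620413-142620712 on the plus strand. They are shown with the motif in capitals, here as its reverse complement.
Ifit3: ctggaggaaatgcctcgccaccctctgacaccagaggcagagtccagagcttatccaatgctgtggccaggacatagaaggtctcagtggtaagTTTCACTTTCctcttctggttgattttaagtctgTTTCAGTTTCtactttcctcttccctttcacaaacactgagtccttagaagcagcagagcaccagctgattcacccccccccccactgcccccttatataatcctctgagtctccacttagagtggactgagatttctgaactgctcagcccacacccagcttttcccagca
Gbp2: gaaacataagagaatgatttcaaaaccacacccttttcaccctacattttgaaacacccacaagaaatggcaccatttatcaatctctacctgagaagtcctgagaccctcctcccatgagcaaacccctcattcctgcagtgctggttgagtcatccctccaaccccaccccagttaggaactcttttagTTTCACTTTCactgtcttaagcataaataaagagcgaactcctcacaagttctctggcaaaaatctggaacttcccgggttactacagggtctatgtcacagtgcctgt

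Of 6 complement genes kept, 5 fell and 0 rose, with a median of -1.79. Over the 5 at 1 RPKM or more in both libraries, 4 fell and the median was -1.88. Serping1, the C1 inhibitor, fell from 8.63 to 1.16 RPKM, a log2 change of -2.90 (-3.19 to -2.62), and the proteases C1s1 and C1ra fell from 26.2 to 6.94 RPKM and from 22.8 to 6.20 RPKM. Adipogenic genes had 1 risen, 7 fallen and 2 other members (median -0.95). Pparg, the master regulator of fat cells, fell from 1.15 to 0.233 RPKM, Ebf1 from 13.4 to 5.69 RPKM, Lpl from 1.03 to 0.379 RPKM and Apod from 23.5 to 6.89 RPKM, while Cebpb rose from 28.9 to 43.5 RPKM. In 3 of the 10, Pparg, Lpl and Fabp4, the TGFB1 library was under 1 RPKM, and over the other 7 members 1 rose and 4 fell, with a median of -0.66.

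**Figure D4:**
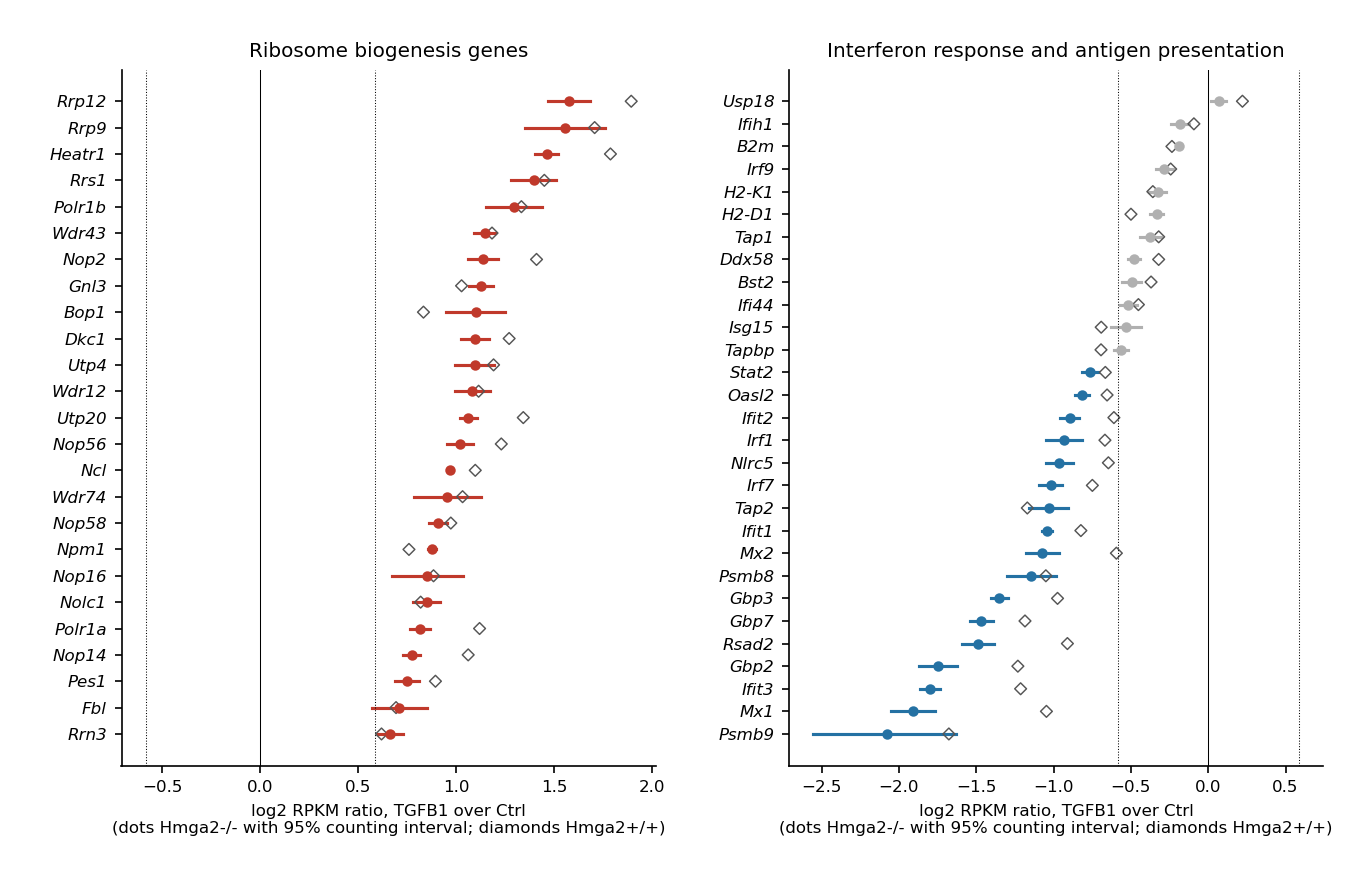
log2 of the RPKM ratio of TGFB1 over Ctrl (horizontal) for the genes of the ribosome biogenesis list (left) and of the interferon list (right), 1 row per gene. Dots are Hmga2-/- MEF with bars for the exact 95% counting interval, red for genes that rose, blue for genes that fell and grey for neither, open diamonds are Hmga2+/+ MEF, and dotted lines mark 1.5-fold. All 25 ribosome biogenesis genes lie to the right of 1.5-fold and 17 of the 29 interferon genes drawn to the left of it.

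All 25 genes of the ribosome biogenesis list rose, against 13.8% of all kept genes, with a median log2 change of 1.06, a minimum of 0.66 for Rrn3 and a maximum of 1.58 for Rrp12. These genes code for the nucleolar machinery that makes and processes ribosomal RNA. The nucleolar proteins Npm1 and Ncl, the most abundant, rose from 370.0 to 678 RPKM and from 103 to 202 RPKM, log2 changes of 0.87 (0.85 to 0.89) and 0.97 (0.95 to 0.99). Polr1b, a subunit of RNA polymerase I, rose from 2.48 to 6.09 RPKM, and the processing factors Rrp9, Heatr1 and Rrs1 from 3.10 to 9.11 RPKM, from 8.10 to 22.3 RPKM and from 7.29 to 19.2 RPKM. Among the 30 cytosolic ribosomal protein genes, which code for the ribosome's own proteins, 1 rose, 0 fell, 26 were higher and the median was 0.27. CACGTG, the E-box that MYC and related factors bind and which reads the same on both strands, was found in 6 of 20 promoters of the biogenesis list (30.0%), against 10.7% of the promoters of kept genes, 12.9% among risen genes and 8.61% among fallen genes. It is in capitals in the promoters of Nop2, an RNA methyltransferase of the nucleolus (from 13.8 to 30.4 RPKM), and of Utp4 (from 9.69 to 20.7 RPKM), at chr6:125131633-125131932 on the plus strand and chr8:106893390-106893689 on the plus strand.
Nop2: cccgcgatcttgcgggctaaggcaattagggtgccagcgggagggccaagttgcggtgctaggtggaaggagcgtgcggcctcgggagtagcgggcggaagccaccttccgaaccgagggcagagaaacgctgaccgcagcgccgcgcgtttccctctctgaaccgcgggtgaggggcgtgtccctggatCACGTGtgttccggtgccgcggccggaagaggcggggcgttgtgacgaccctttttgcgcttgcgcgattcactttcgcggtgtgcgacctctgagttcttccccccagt
Utp4: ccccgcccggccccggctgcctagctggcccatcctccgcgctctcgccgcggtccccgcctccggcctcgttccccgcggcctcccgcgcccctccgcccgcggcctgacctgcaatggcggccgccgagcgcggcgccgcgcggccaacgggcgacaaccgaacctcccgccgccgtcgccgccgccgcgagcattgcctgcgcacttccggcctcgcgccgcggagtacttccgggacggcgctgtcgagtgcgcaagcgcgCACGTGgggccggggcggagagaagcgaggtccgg

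In the list for serine, glycine and proline synthesis and amino acid transport 15 rose, 0 fell and 4 did neither (median 1.16). Asns, which makes asparagine, rose from 9.21 to 42.4 RPKM, the mitochondrial enzyme Shmt2 from 15.9 to 45.7 RPKM, the proline synthesis enzyme Aldh18a1 from 7.39 to 18.9 RPKM, and the transporter Slc7a5 from 9.91 to 28.8 RPKM. Atf4, the factor that drives many of these genes, rose from 58.7 to 131 RPKM, by 1.16 (1.11 to 1.20). Glucose uptake and glycolysis had 14 risen, 2 fallen and 4 other members (median 0.89). The glucose transporter Slc2a1 rose from 8.15 to 32.1 RPKM, Hk2 from 2.31 to 8.77 RPKM, the lactate exporter Slc16a3 from 1.02 to 8.13 RPKM, and the abundant Eno1, Ldha and Pkm from 84.7 to 179.8 RPKM, from 81.8 to 175 RPKM and from 130.2 to 214 RPKM. Gapdh did not pass the filter on its transcript with the longest gene body (0.518 and 0.863 RPKM), and its abundant transcript of 1409 bases had 23.1 and 34.8 RPKM. Chaperones of the endoplasmic reticulum and genes of the unfolded protein response had 14 risen, 0 fallen and 7 other members (median 0.65), with Hspa5, or BiP, up from 187 to 403 RPKM, Hsp90b1 up from 538 to 898 RPKM and Ddit3, or CHOP, at 20.5 and 18.5 RPKM. Cholesterol and fatty acid synthesis had 5 risen, 1 fallen and 25 other members, a risen share of 16.1% against 13.8% of all kept genes, with Msmo1 among the risen ones (from 139 to 264 RPKM). Among Nox4 and the antioxidant targets of NRF2 3 rose, 3 fell and 12 did neither. Of the 15 at 1 RPKM or more in both libraries, 1 rose and 2 fell. Slc7a11, the cystine transporter, rose from 0.547 to 2.48 RPKM, and Gstm1, a glutathione transferase, fell from 19.2 to 2.47 RPKM, a log2 change of -2.96 (-3.19 to -2.73).

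Mitosis genes had 0 risen, 3 fallen and 22 other members (median -0.15), the fallen ones being Ccnb2 (from 23.1 to 13.2 RPKM), Cenpf (from 30.4 to 17.7 RPKM) and Mki67, the proliferation marker (from 166 to 103 RPKM). DNA replication and S-phase genes had 1 risen, 1 fallen and 27 other members (median 0.06). Rrm2 rose from 33.1 to 55.3 RPKM and Tk1 fell from 21.8 to 13.5 RPKM, both enzymes of nucleotide supply, while Pcna was at 102 and 106 RPKM. Nuclear-encoded respiratory chain genes had 2 risen, 1 fallen and 23 other members and proteasome subunits 2 risen, 0 fallen and 24 other members, with medians of -0.03 and 0.31. Among mTOR complex genes and regulators, a list that also held Gata6, 5 rose, 2 fell and 8, Gata6 among them, did neither. Eif4ebp1, a translation inhibitor under mTOR, rose from 12.7 to 29.0 RPKM, and Deptor, an mTOR inhibitor, fell from 2.40 to 0.457 RPKM.

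The list of genes that the study assays or names also held the given markers Hbegf and Gjb2. Of its 14 kept genes 6 rose, Hbegf and Gjb2 among them, 0 fell and 8 did neither. Mtor had 8.46 and 8.08 RPKM, a log2 change of -0.07 (-0.13 to 0.00), and Gata6 1.11 and 1.11 RPKM (log2 change 0.00, -0.29 to 0.29). Rptor had 5.12 and 6.17 RPKM (log2 change 0.27, 0.18 to 0.35). None of them passed 1.5-fold, and Igf1 did not reach 1 RPKM in either Hmga2-/- library. By qRT-PCR the paper reports a rise of Gata6, Mtor and Igf1 with TGFB1 in Hmga2+/+ MEF only. Its methods normalize qRT-PCR to Tuba1a and HPRT1, while RPKM is scaled to mapped reads, so the measures are unlike. Tuba1a had log2 changes of -0.65 in the Hmga2+/+ pair and -0.13 in the Hmga2-/- pair, and Hprt 0.81 in each. What this does to the qRT-PCR values was not tested. For Gata6, Mtor and Igf1 the Hmga2+/+ libraries held no rise past 1.5-fold. Mtor was at 8.152 and 8.535 RPKM and Gata6 at 1.45 and 1.196 RPKM. Igf1 was lower with TGFB1 there (log2 change -0.85), at 1.482 RPKM without and 0.825 RPKM with it. Whether the level of these RNAs under TGFB1 depends on HMGA2 was not tested. The FACT subunits Supt16 and Ssrp1 were at 113 and 131 RPKM and 106 and 135 RPKM, log2 changes of 0.21 (0.19 to 0.24) and 0.34 (0.31 to 0.37). In the list of DNA demethylation, FACT and H2A.X genes 3 rose, 0 fell and 13 did neither, the risen ones being Hmga1, the paralog of Hmga2 (from 4.15 to 8.65 RPKM), the glycosylase Tdg (from 5.61 to 8.78 RPKM) and the repair factor Ercc1 (from 2.14 to 4.92 RPKM). H2afx, the gene of H2A.X, and its kinase gene Atm were at 24.3 and 23.9 RPKM and 17.1 and 16.3 RPKM. Of genes often used as references in qPCR, 4 rose, 0 fell and 10 did neither. Tfrc rose from 39.1 to 126 RPKM, Hprt from 31.4 to 55.2 RPKM and Actb from 981 to 1478 RPKM, and Pgk1 rose by 1.12 (1.05 to 1.19) on the log2 scale, whereas Tbp and Ppia were at 11.3 and 12.9 RPKM and 64.7 and 62.0 RPKM.

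Set beside the Hmga2+/+ pair, which shares no library with the Hmga2-/- pair, most changes had the same direction. Of the 1536 genes that rose in Hmga2-/- MEF, 1103 (71.8%) passed 1.5-fold upwards in the Hmga2+/+ pair too. Of the 1719 that fell, 1395 (81.2%) passed it downwards there. Among all 11140 kept genes, 1337 passed 1.5-fold upwards and 1887 downwards in the Hmga2+/+ pair, the base for the Hmga2+/+ counts here. Across the 10082 genes at 1 RPKM or more in all 4 libraries, Pearson's r of both log2 changes was 0.91 and Spearman's rho 0.89. Genes are not independent replicates, and this is a description. The risen genes had a median log2 change of 0.93 in the Hmga2-/- pair and 0.81 in the other pair, and the fallen genes had medians of -0.95 and -0.91. Since the genes were chosen on the Hmga2-/- values, these medians lean towards a larger Hmga2-/- change. Gjb2 had a log2 change of 6.44 against 6.46 in Hmga2+/+ MEF (0.586 and 51.7 RPKM) and Hbegf 5.42 against 5.27 (2.71 and 104 RPKM). The ribosome biogenesis list had a median of 1.06 against 1.11 with 25 of 25 risen in both, and the interferon list -0.86 against -0.66 with 17 and 19 fallen. Classical targets had 1.78 against 1.39, contractile genes 0.56 against 0.44, and chaperones 0.65 against 0.50, with 14 and 5 of 21 past 1.5-fold. Single genes, picked after their values were seen, differed both ways. Itga11 had 4.29 against 2.63, Adamts4 0.93 against -0.03 and Tgfb1 1.23 against 0.66. With the larger change in Hmga2+/+ MEF, Thbs4 had 4.79 against 5.70, Il1rl1 2.37 against 3.04 and Gadd45a 2.44 against 2.68. No difference between the genotypes was tested, as each has 1 library per treatment.

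**Figure D5:**
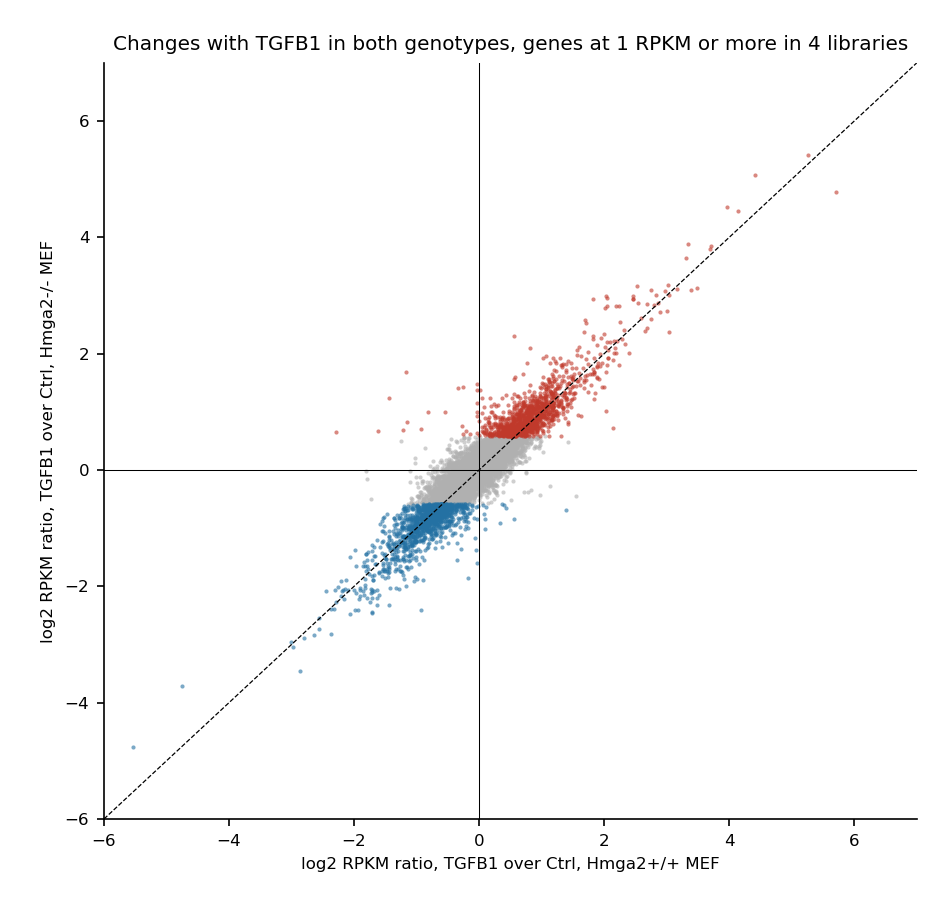
log2 of the RPKM ratio of TGFB1 over Ctrl in Hmga2+/+ MEF (horizontal) and in Hmga2-/- MEF (vertical) for the 10082 genes at 1 RPKM or more in all 4 libraries, 1 dot per gene. Red genes rose and blue genes fell at least 1.5-fold in Hmga2-/- MEF, grey genes did neither, and the dashed line marks equal change. The dots follow the dashed line, with r = 0.91.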

How the data were processed

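The series holds RNA-seq of 4 MEF libraries, 1 for each combination of Hmga2 genotype and treatment, and the Hmga2-/- Ctrl and TGFB1 libraries were compared here. Total RNA was sequenced from stranded libraries in single-end reads. According to the methods and to the submitters' processing notes, reads were trimmed with Trimmomatic, mapped to mm10 with HISAT2 2.1.0 and counted on UCSC known genes with HOMER and its strand option. The deposited values are RPKM, rounded by the authors to 3 decimals. The file header names exons as the counted feature and the methods name genes. The methods speak of duplicates, and whether replicates were pooled is not stated. The table also gives each transcript's length, as the authors deposited it.

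Of 63759 transcripts, 57708 (90.5%) were named by GENCODE vM21, from a gene of their strand that covered at least 50% of their span. The mapped reads of each library were taken as the depth at which RPKM times length came out whole for short transcripts (under 600 bases) with low values. At that depth 100% of the values were within 0.1 of a whole read. Reads on a transcript shared with other transcripts of the gene count for each of them. RPKM of 0 were set to 0.001, as in the methods, only to form ratios for counts. No count test was run, since 1 library a side leaves no replicate. The genes named are members of 46 lists (in each, the largest changes and the highest level), the 20 protein-coding and 5 other genes with the largest change in each direction on transcripts of at least 200 bases, ranked by the interval bound nearest to no change, and genes the study assays. Members outside these ranks were named after their values were seen. Members and lists were chosen with earlier results of these data known. Steps were tested on simulated data. Alternatives changed the pseudocount, scaling, transcript, filter, gene class and threshold. Promoters are from RefSeq, 1 per gene, nearest to the transcript's start. Those of Hbegf and Ccn2 were not used here. Some genes that the naming rule covers are not reported here, while the counts and medians of lists include them. Python 3.11.15, numpy 2.4.6, pandas 2.3.3, scipy 1.17.1 and matplotlib 3.10.9 were used.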

Additional observations from a re-analysis of the deposited data

Results flagged for a closer look

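In all, 39 genes passed 1.5-fold in opposite directions in Hmga2-/- and Hmga2+/+ MEF, 25 of them up and 14 of them down in Hmga2-/- MEF. Each genotype has 1 library per treatment, so the difference was not tested. Of the 39 genes, 38 were read on transcripts under 200 bases, 31 of them microRNA genes, and none of these 38 had more than 48 reads in any library. The only one on a longer transcript was the histone gene Hist2h2aa2. It had 1.69 RPKM without and 2.66 RPKM with TGFB1 in Hmga2-/- MEF, from 57 and 90 reads, a log2 change of 0.65 (counting interval 0.16 to 1.16). In the Hmga2+/+ pair it had 6.32 and 1.29 RPKM, from 211 and 44 reads, a log2 change of -2.29. Replication-dependent histone genes have near-identical copies between which reads can be split, so this value is uncertain.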

How the results depend on the processing

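No paired analysis was possible because each condition has 1 library and no replicate numbers. For the same reason no replicate could be left out. The numbers of genes that rose and fell, 1536 and 1719, depended most on the filter and the threshold. With no filter 3335 rose and 4764 fell, at a 2-fold threshold 666 and 780, and with at least 5 RPKM in 1 library 1069 rose and 765 fell. Where the counting interval also had to lie beyond 1.5-fold, 1091 rose and 1125 fell. Under a pseudocount of 1 the counts were 1216 and 1155, and with 1 RPKM or more required in both libraries 1311 and 1232. In these last alternatives and with at least 5 RPKM, rises outnumbered falls. Rescaling by the median ratio shifted log2 changes by -0.03 and gave 1450 and 1834. Leaving out the 285 genes on transcripts under 200 bases, an alternative chosen after seeing the data, gave 1431 and 1638. The transcript with the highest mean RPKM, another one for 45.9% of the kept genes, gave 1568 and 1809. The median log2 change of all genes lay between -0.01 and 0.08 in every alternative run. None of the 800 named or listed genes that were kept changed the sign of a called change. Under the 4 alternatives run for them (both pseudocounts, the rescaling and the transcript choice) 2, 31, 7 and 3 of them lost their call for the pseudocounts of 0.1 and 1, the rescaling and the transcript in turn. The median of 46 lists moved by at most 0.14, 1.23, 0.03 and 0.07 in the same order, and only that of the connexins, over 5 genes, moved by more than 1.5-fold, to 1.78 under a pseudocount of 1. The depth limits genes of few reads most, and nothing here measures the spread between cultures.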

Other observations

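The families given here lie outside the lists and were chosen after their values were seen, and their counts stand beside the 13.8% of all kept genes that rose and the 15.4% that fell. Of 11 kept host genes of small nucleolar RNAs named Snhg, 9 rose, 0 fell and the median log2 change was 0.92. Snhg1 rose from 10.2 to 21.8 RPKM, by 1.10 (1.01 to 1.18), and Snhg15 from 2.90 to 7.44 RPKM, while Snhg18 was at 4.33 and 3.06 RPKM. In the Hmga2+/+ pair 6 of the 11 rose and 1 fell, beside 1337 risen and 1887 fallen of all 11140 kept genes. Hox genes, the transcription factors of position along the body, had 12 kept members in the Hoxa and Hoxd clusters, of which 0 rose, 6 fell and 6 did neither. Hoxa13 fell from 6.19 to 1.81 RPKM, a log2 change of -1.77 (-2.06 to -1.49), and Hoxd13, the most abundant, was at 53.5 and 36.7 RPKM. Of 10 kept semaphorins, secreted or membrane guidance proteins, 6 fell, among them Sema3b from 3.78 to 1.05 RPKM and Sema3f from 7.17 to 2.30 RPKM, 3 did neither and 1, Sema7a, rose. In the Hmga2+/+ pair 5 of the 12 Hox genes and 6 of the 10 semaphorins fell.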
